A study of Mus musculus with 4 samples.

Results

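Sox7, Sox17 and Sox18 form the SoxF group of the Sox transcription factors, and their expression was compared between 2 populations of mouse cells sorted by activity of the Etv2 gene. The group was defined by gene name, so all 3 of its genes were taken, out of 18193 genes measured. They were read by 5 probe sets that the array's annotation assigns to 1 gene each, and 0 probe sets with several gene symbols named any of them. Per gene the probe set with the highest mean over the 4 arrays was kept, and the others are shown beside it. Members and gene lists were chosen with earlier results of the same data known.

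SoxF proteins bind DNA through a high mobility group box and are best known as regulators of vessels. Sox7 marks early blood-vascular precursors and endothelium, Sox17 acts in definitive endoderm and in arterial and blood-forming endothelium, and Sox18 acts in blood vessels and in the specification of lymphatic endothelium. The 3 factors can substitute for each other in part, and Sox7 and Sox17 also have roles in extraembryonic endoderm, so endoderm genes are given below as well as endothelial ones.

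All cells came from TT2, a mouse embryonic stem cell line, heterozygous for a knock-in of the Venus fluorescent protein at Etv2, a transcription factor of the ETS family needed for blood and endothelium. They were grown into mesoderm on OP9, stromal cells from mouse bone marrow, and the labels give day 5. Flk-1 positive cells, that is cells bearing the VEGF receptor encoded by Kdr, were sorted by Venus into a negative and a positive population, and each was measured on 2 arrays, numbered 1 and 2. Both populations therefore carry the knock-in and were selected on Flk-1, and no array of unsorted or wild-type cells was used here. Nothing in the labels says whether separate cultures were used, so p-values here measure no more than the array-to-array spread, which may be technical. In such bulk RNA, fewer cells of a type and less RNA per cell cannot be told apart.

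Values are log2 signals per probe set, and the 4 array medians lay between 5.46 and 5.52. The number of arrays limits the precision. Etv2, the gene of the reporter, measured 12.03 and 11.87 on the negative arrays, against 12.64 and 12.41 on the positive ones, so the positive arrays were higher and the populations did not overlap. Kdr, on which both populations were selected, measured 12.51 and 12.68 against 12.64 and 12.81, and its arrays overlapped. Differences below are in log2 units, positive minus negative, and come with the standard error (SE) and, where given, the 95% interval of the limma fit.

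All 3 SoxF genes had higher signal in the Etv2-Venus positive cells, by 1.94-fold to 2.33-fold, and in each the positive arrays lay above both negative arrays. They did not pass an adjusted p of 0.05 over all genes, where 0 genes passed. Their signal in the Etv2-Venus negative cells was already well above the array medians.

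Sox18, the factor of lymphatic specification, measured 7.63 and 7.55 on the negative arrays, against 8.88 and 8.74 on the positive ones. Arrays of the same population lay close together, and the populations were clearly apart. The difference was 1.22 (SE 0.10, 95% interval 0.95 to 1.48), a 2.33-fold change (limma, Benjamini-Hochberg adjusted p = 0.0670). The adjusted value is the smallest in the fit and was shared by 66 genes. Within the arrays numbered 1 the difference was 1.25, and within those numbered 2 it was 1.19.

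Sox7 measured 9.30 and 9.45 on the negative arrays, against 10.37 and 10.63 on the positive ones, again without overlap. The difference was 1.13 (SE 0.13, 95% interval 0.78 to 1.47), or 2.18-fold (limma adjusted p = 0.0802). Both array numbers showed it, at 1.07 and 1.18. A second Sox7 probe set did not share the pattern. It measured 4.50 and 4.13 on the negative arrays, against 4.07 and 4.94 on the positive ones, below the array medians, with a difference of 0.19 (SE 0.33) and overlapping arrays. It was designed on another transcript record than the kept probe set, and the sources used here do not place either on the gene. With the mean over the probe sets of each gene, the Sox7 difference was 0.66 (limma adjusted p = 0.361).

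Sox17, the factor shared by endoderm and arterial endothelium, measured 8.17 and 8.42 on the negative arrays, against 9.25 and 9.26 on the positive ones. The positive arrays were almost equal, and both exceeded the negative arrays, which differed from each other by 0.25. The difference was 0.96 (SE 0.12, 95% interval 0.65 to 1.27), or 1.94-fold (limma adjusted p = 0.0882). The kept probe set belongs to a class whose probes may cross-hybridise with similar transcripts. The other Sox17 probe set, which is not of that class, gave 7.62 and 7.71 against 8.62 and 8.58, a difference of 0.94 (SE 0.10). The 2 probe sets of Sox17 thus differed little in the size of the change.

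**Figure D1:**
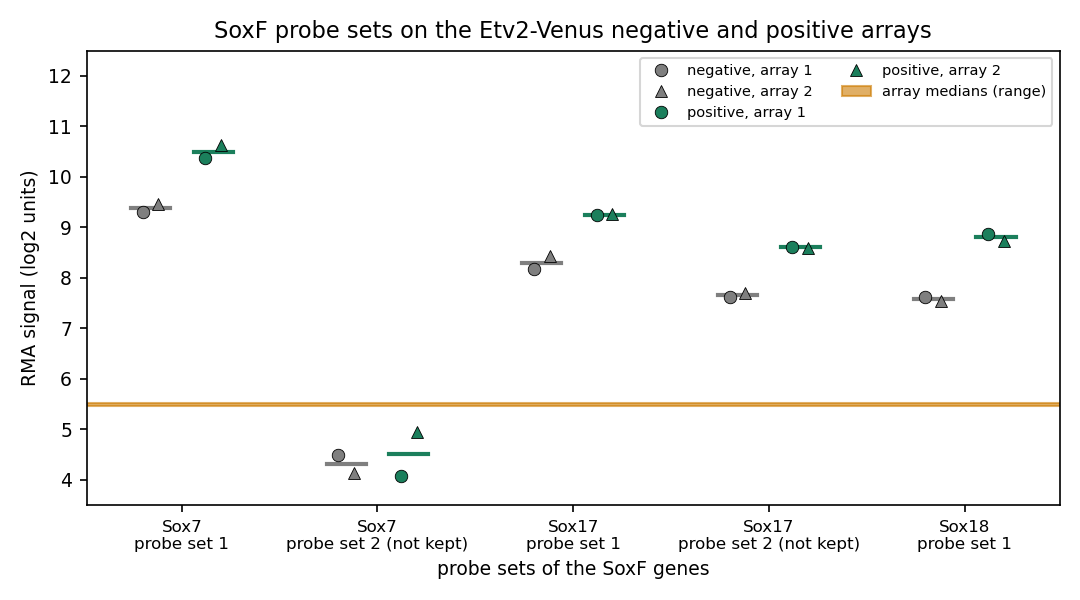
RMA signal in log2 units for the 5 SoxF probe sets. Circles are arrays numbered 1, triangles arrays numbered 2, short bars group means, grey the Etv2-Venus negative and green the positive population, and the orange band the range of the array medians. In 4 of the 5 probe sets both positive arrays lie above both negative arrays. The second Sox7 probe set lies below the medians, and its arrays overlap.

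The SoxF genes were read against the whole array. Positive arrays lay above negative arrays in 3 of 3 SoxF genes and in 22.4% of all genes. An adjusted p under 0.10 with higher signal in positive cells was reached by 3 of 3 and by 0.945% of all genes. This limit is looser than the threshold of 0.05 and lies just above the SoxF values, so the share is a description only. At least 2-fold higher signal was seen for Sox18 and Sox7, 2 of 3, and for 0.599% of all genes. Ranked by the size of the difference towards positive cells among the 18193 genes, Sox18 was at place 31, Sox7 at 61 and Sox17 at 126. At the threshold of 0.05, limma called 0% of genes higher and 0% lower, while an unadjusted p under 0.05 was reached by 1287 genes higher and 844 lower.

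The call on single SoxF genes depended on the variance model and on which genes were tested. When the prior variance followed the mean and was estimated robustly, Sox18 (limma adjusted p = 0.0390) and Sox7 (0.0440) passed and Sox17 (0.0548) did not. When genes had to average 6 log2 units or more, Sox18 passed (limma adjusted p = 0.0429), and Sox7 (0.0549) and Sox17 (0.0590) did not. An exact permutation of 2 arrays against 2 cannot go below p = 0.33, so it gives no call for a single gene.

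The sizes of the 3 differences were compared with each other and with that of Etv2, 6 comparisons in all. Sox18 exceeded Sox7 by 0.09, with gaps of 0.17 and 0.01 on the arrays numbered 1 and 2 (exact permutation p = 0.667, two-sided, adjusted p = 0.667). Sox18 exceeded Sox17 by 0.26, with gaps of 0.17 and 0.35, and Sox7 exceeded Sox17 by 0.17, with gaps of 0.00 and 0.34 (exact permutation p = 0.33 for each, the smallest possible, adjusted p = 0.4). This test cannot reach 0.05 with 2 arrays against 2, so neither an order of the 3 genes nor a like size was shown. The differences of Sox7, Sox17 and Sox18 exceeded the Etv2 difference of 0.57 by 0.55, 0.38 and 0.65, in the same direction on both array numbers (exact permutation p = 0.33 for each, adjusted p = 0.4). Log2 differences of bright probe sets can be compressed, and whether this held for Etv2 was not tested.

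No other Sox gene had higher signal in the positive cells by as much as the SoxF genes. All 17 listed genes of the other Sox groups were measured, and 0 passed in limma over all genes. Their median difference was -0.11, against 0.01 over all genes, and they ran from -0.71 for Sox2 to 0.35 for Sox1. Leaving out 1 array at a time moved Sox2 between -1.08 and -0.35 and Sox1 between 0.16 and 0.54. The positive arrays lay above the negative arrays in 4 of 17, against 22.4% of all genes, and below them in 7 of 17, against 17% of all genes. At an unadjusted p under 0.05 there was 1 gene of 17, against 7.07% of all genes higher and 4.64% lower. This was Sox13, a SoxD factor (7.01 and 7.0004 against 7.41 and 7.22, difference 0.31, SE 0.11, limma adjusted p = 0.366).

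Sox2, a SoxB1 factor of pluripotent and neural cells, measured 7.34 and 6.62 on the negative arrays, against 6.47 and 6.06 on the positive ones. These arrays did not overlap, but the negative arrays alone were 0.72 apart, and the difference was -0.71 (SE 0.29, limma adjusted p = 0.449). Sox4 and Sox11, SoxC factors of progenitor cells, had bright signals. Sox4 measured 12.57 and 12.68 against 12.39 and 12.52, and Sox11 measured 11.34 and 11.80 against 10.80 and 11.39. Their differences were -0.18 (SE 0.10) and -0.47 (SE 0.26), with adjusted p of 0.614 and 0.589 in limma, and the Sox11 arrays overlapped. Sox9, a SoxE factor of cartilage and other progenitors, was at -0.38 (SE 0.17, limma adjusted p = 0.482). Of the 17 genes, 9 averaged 6 log2 units or more. The others, Sox1 among them, were dim, and such differences are hard to size.

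**Figure D2:**
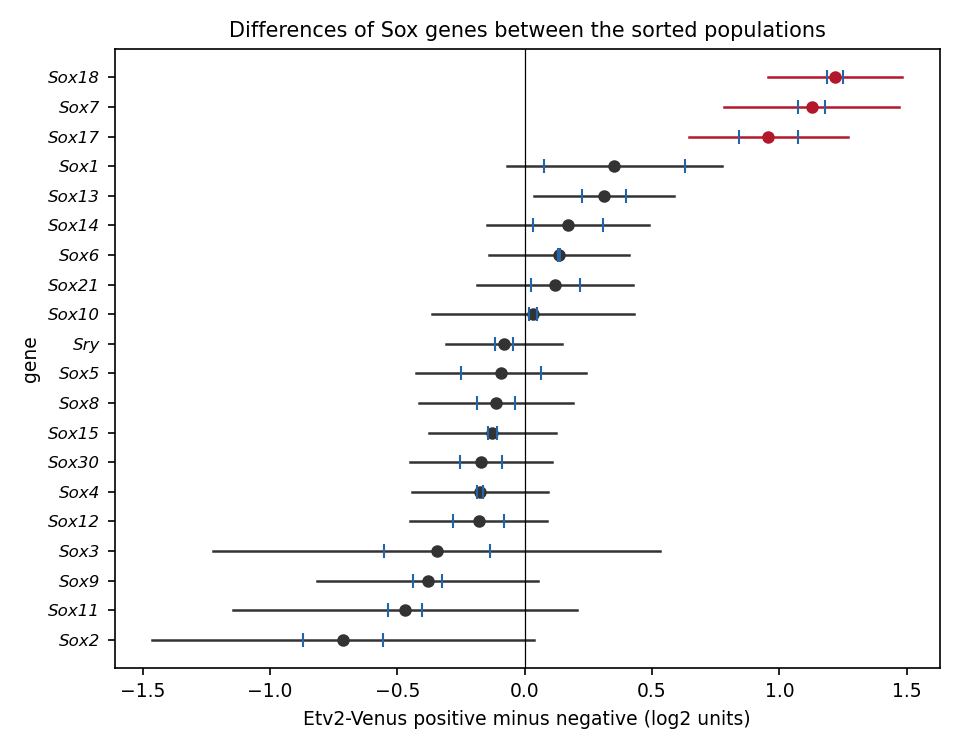
Difference between the populations, Etv2-Venus positive minus negative in log2 units, for the 3 SoxF genes (red) and 17 other Sox genes (black). Points are limma estimates, horizontal lines 95% intervals, and blue ticks the differences within the arrays numbered 1 and 2. The SoxF points lie from 0.96 to 1.22, and the highest other point, Sox1, lies at 0.35.

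Genes reported as SoxF targets, and vascular genes often studied with them, were followed next. Of 16 listed genes 16 were measured and 0 passed in limma over all genes. An unadjusted p under 0.05 was reached by 10 with higher signal in positive cells, against 7.07% of all genes, and by 1 with lower signal, against 4.64%. The median difference was 0.78, against 0.01 over all genes. Of the 16 differences 15 were above 0, against 9630 of the 18193 over all genes. The positive arrays lay above the negative arrays in 11 of 16, against 22.4% of all genes. Several of these genes are endothelial markers and had been part of earlier lists on these data, so the count is a description.

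Tek, the angiopoietin receptor, had the largest difference of this list. It measured 8.01 and 7.84 on the negative arrays, against 9.42 and 9.11 on the positive ones, a difference of 1.34 (SE 0.14, limma adjusted p = 0.0698). Rasip1, a Ras-interacting protein of vessel lumens, measured 7.42 and 7.45 against 8.75 and 8.70, and Flt4, the VEGF receptor of lymphatic endothelium, 9.37 and 9.29 against 10.70 and 10.50. Neither gene's populations overlapped, and both had a limma adjusted p of 0.0670. The adhesion genes followed. Cdh5, which encodes VE-cadherin, was at 0.98 (SE 0.15, limma adjusted p = 0.112), the tight junction gene Cldn5 at 1.01 (SE 0.20, 0.155) and the junction gene Esam at 1.07 (SE 0.10, 0.0670). With the mean over the probe sets of each gene, Cdh5 was lower, at 0.56 (SE 0.11, limma adjusted p = 0.169), and Flt4 was at 0.99 (SE 0.09). Vcam1, an adhesion receptor that Sox18 can activate, went the other way, with 5.14 and 5.29 against 4.94 and 4.84, and was dim.

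Genes of the Notch and arterial branch had smaller differences in limma over all genes than Tek, Rasip1, Flt4, Cdh5, Cldn5 and Esam. They were not the lowest of the list, since Kdr (0.13), Nr2f2 (0.01) and Vcam1 (-0.33) lay below them. The ligand Dll4 measured 5.07 and 4.74 on the negative arrays, against 5.50 and 5.82 on the positive ones, a difference of 0.75 (SE 0.17, limma adjusted p = 0.201), near the array medians. The receptor Notch1 measured 10.36 and 10.86 against 10.78 and 11.19, and its arrays overlapped. The ephrin ligand Efnb2 measured 10.74 and 10.70 against 10.82 and 10.995, a difference of 0.19 (SE 0.10, limma adjusted p = 0.585).

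Lymphatic genes were examined because Sox18 acts on Prox1 in that lineage. Prox1 measured 5.10 and 6.82 on the negative arrays, against 5.98 and 7.55 on the positive ones. Within each population the array numbered 2 was thus higher, by 1.72 and 1.58, which exceeded the difference between populations of 0.80 (SE 0.77, limma adjusted p = 0.796). Within the arrays numbered 1 and 2 the difference was 0.88 and 0.73. Nr2f2, a partner of Prox1 in venous cells, was at 0.01 (SE 0.10). Of 8 listed lymphatic markers 7 were measured and 0 passed in limma, with 3 higher and 1 lower at an unadjusted p under 0.05, against 7.07% and 4.64% of all genes. Positive arrays lay above negative arrays in 3, Flt4, Nrp2 and Reln, against 22.4% of all genes, and the median difference was 0.32. Flt4, Prox1 and Nr2f2 are also in the list of linked genes. Pdpn, a membrane glycoprotein of lymphatic endothelium, went the other way, with 8.91 and 8.75 against 8.36 and 8.48 (difference -0.41, SE 0.11, limma adjusted p = 0.258). Lyve1, a hyaluronan receptor of lymphatic endothelium, stayed between 4.32 and 4.58 on all 4 arrays, below the array medians.

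Genes of 7 proteins known to work with SoxF factors were read next, and 0 of 7 passed in limma over all genes. At an unadjusted p under 0.05, 0 were higher, against 7.07% of all genes, and with 7 genes such a count is near that share. Positive arrays lay above negative arrays in 0 and below them in 4 of 7, against 22.4% and 17% of all genes. The median difference was -0.06. Rbpj, the DNA-binding effector of Notch, measured 9.74 and 9.51 on the negative arrays, against 9.88 and 9.51 on the positive ones. Ctnnb1, which encodes beta-catenin, measured 13.65 and 13.67 against 13.57 and 13.62. Mef2c, a MADS box factor that Sox18 binds, measured 6.06 and 7.93 against 6.36 and 8.01, so that its arrays split by number and not by population. Runx1, the factor of blood emergence, split in the same way, with 7.99 and 8.54 against 8.04 and 8.77. For both genes the sign of the difference turned when 1 array was left out, from 0.19 to as low as -0.75 for Mef2c and from 0.14 to as low as -0.22 for Runx1.

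Lef1, a Wnt effector that binds beta-catenin, measured 10.57 and 10.37 on the negative arrays, against 9.93 and 9.60 on the positive ones, without overlap (difference -0.71, SE 0.15, limma adjusted p = 0.173). Pou5f1, the pluripotency factor that can pair with Sox17 on DNA, measured 9.09 and 8.35 against 7.998 and 7.15 (difference -1.15, SE 0.38, limma adjusted p = 0.354). These were the 2 partners with an unadjusted p under 0.05, both lower in the positive cells, against 4.64% of all genes.

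**Figure D3:**
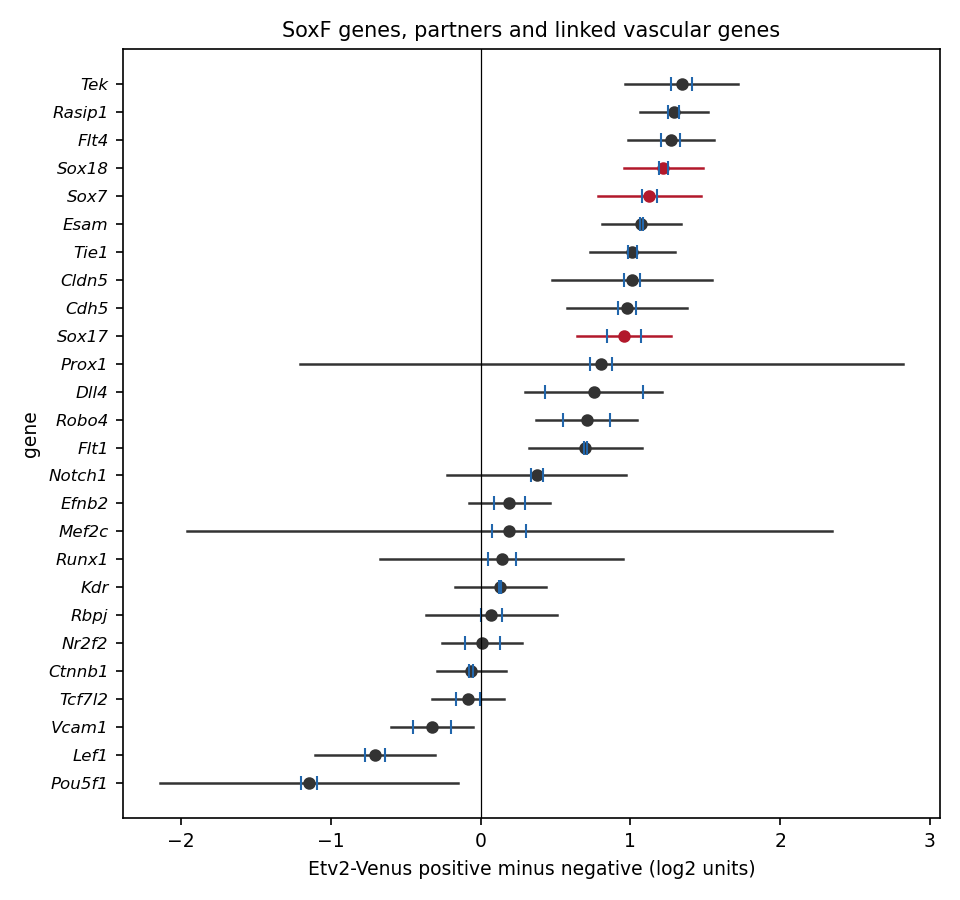
Difference between the populations in log2 units for the SoxF genes (red), 16 linked vascular genes and 7 partner genes (black), ordered by size. Points are limma estimates, lines 95% intervals, and blue ticks the differences within the arrays numbered 1 and 2. Tek is at the top with 1.34 and Pou5f1 at the bottom with -1.15, and the widest intervals are those of Mef2c and Prox1.

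Promoter sequence was read for the linked genes, since many of them differed in the same direction as the SoxF genes. Of the 16 genes, 13 had an entry in the RefSeq promoter table of build GRCm38.p6, with 14 windows. The 250 bases before the annotated start were searched on both strands for ACAAT, a core bound by Sox proteins. The ETS cores CGGAAG and AGGAAG, which do not overlap with it, were searched as well. Other forms of the Sox core were not searched. Matches in the list were counted per gene, and those over the whole table per window. ACAAT was present for 2 of the 13 genes, Tek and Robo4, against 27.7% of all 32851 windows. CGGAAG was present for 1, Tie1, against 13.6%, and AGGAAG for 5, Flt1, Nr2f2, Rasip1, Robo4 and Tie1, against 29.5%. A match is a description of the letters and not a site of binding. The 2 windows with the Sox core and, for comparison, that of Tie1, the receptor related to Tek, are shown 5′ to 3′ on the strand of the gene, with matches to the searched cores on either strand in capitals. They lie at chr4:94739039-94739288 (plus strand), chr9:37401722-37401971 (plus strand) and chr4:118489850-118490099 (minus strand) of GRCm38.p6.
Tek: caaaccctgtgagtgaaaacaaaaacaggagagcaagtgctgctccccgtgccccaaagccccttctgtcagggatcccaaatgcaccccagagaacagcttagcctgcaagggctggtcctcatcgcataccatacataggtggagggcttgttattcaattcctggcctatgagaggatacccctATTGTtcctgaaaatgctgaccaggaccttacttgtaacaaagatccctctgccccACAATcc
Robo4: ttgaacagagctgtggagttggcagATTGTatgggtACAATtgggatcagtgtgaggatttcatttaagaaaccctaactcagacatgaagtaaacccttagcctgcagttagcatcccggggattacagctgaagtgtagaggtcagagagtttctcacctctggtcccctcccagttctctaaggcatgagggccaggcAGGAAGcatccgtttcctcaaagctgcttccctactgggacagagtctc
Tie1: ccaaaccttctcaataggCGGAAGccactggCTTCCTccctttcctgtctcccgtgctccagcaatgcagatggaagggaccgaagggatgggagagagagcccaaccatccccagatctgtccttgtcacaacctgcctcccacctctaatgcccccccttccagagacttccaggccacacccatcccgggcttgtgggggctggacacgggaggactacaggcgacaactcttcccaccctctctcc
The Tek window holds ACAAT on the minus strand at 63 to 59 bases and on the plus strand at 7 to 3 bases before the start. In Robo4 both Sox cores lie far from the start, at 225 to 221 and 214 to 210 bases, and the ETS core lies at 49 to 44. In Tie1 both ETS cores lie at the distal end. Robo4, an endothelial guidance receptor, measured 5.61 and 5.90 on the negative arrays, against 6.47 and 6.45 on the positive ones, and Tie1 measured 5.73 and 5.84 against 6.72 and 6.88. Both genes were dim in the negative cells, and their differences were 0.71 (SE 0.13) and 1.01 (SE 0.11).

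The genes next to the SoxF genes on the chromosome were read by a rule added after the data were seen, the nearest 2 measured protein-coding genes on each side in GRCm38.p6. Of these 12 genes 0 passed in limma over all genes. An unadjusted p under 0.05 was reached by 1, Xkr6, with lower signal, against 4.64% of all genes. The 12 differences ran from -0.28 for Xkr6 to 0.22 for Pinx1, both neighbours of Sox7. Sox17 lies between Rp1 (difference 0.03, SE 0.09) and Mrpl15 (0.02, SE 0.10). Sox18 lies between Prpf6 (0.06, SE 0.09) and Tcea2 (0.21, SE 0.14). Differences of the SoxF size were thus not seen in the flanking genes, several of which were dim.

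The genes with the most similar pattern were taken as the 5 with the smallest Euclidean distance to each SoxF gene over the 4 arrays, after subtracting each gene's own mean, among 10176 other genes with a mean of at least 6. For Sox18 these were Zfpm2, Bcl6b, Flt4, Dysf and Ctla2b, at distances of 0.05 to 0.08 log2 units. Bcl6b, an endothelial repressor, measured 7.997 and 7.986 against 9.30 and 9.17. For Sox7 they were Csgalnact1, Elk3, Nhsl1, Tspan8 and Esam, at 0.08 to 0.12. Elk3, an ETS factor of vessels, measured 9.88 and 9.997 against 11.02 and 11.19. For Sox17 they were Def6, Gab1, Hapln1, Adgra2 and Fam110c, at 0.07 to 0.11. Gab1, a docking protein of growth factor receptors, measured 9.62 and 9.78 against 10.72 and 10.70. The 3 sets share no gene. With 4 arrays the distance follows mainly the size of the difference between populations and, next to it, which array of a population was higher.

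**Figure D4:**
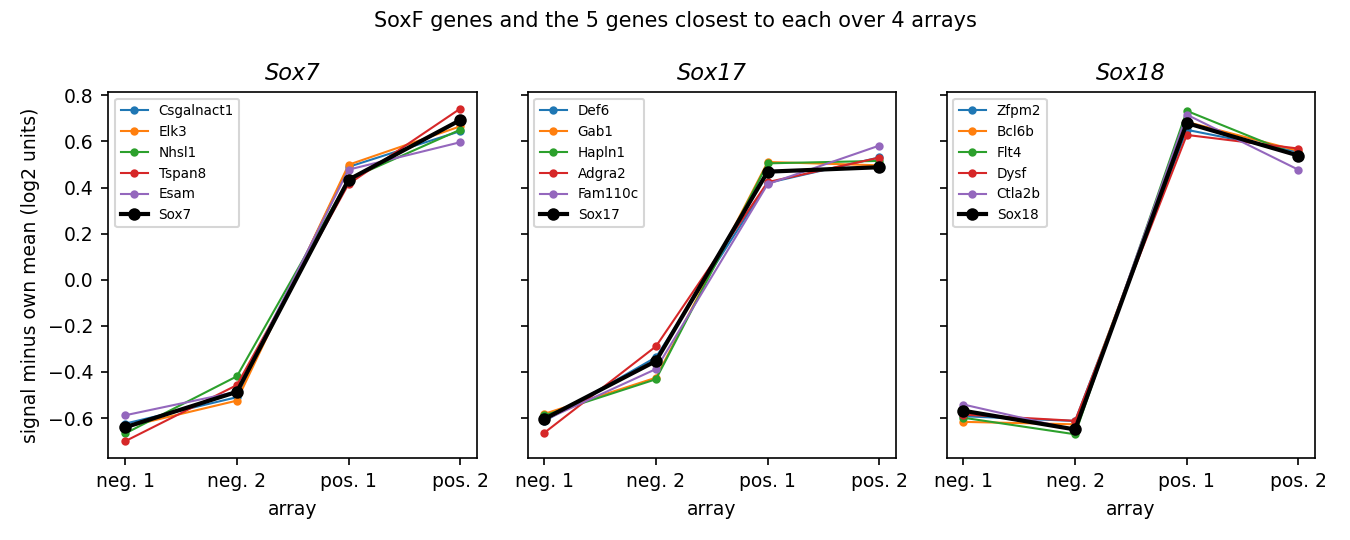
Signal minus the gene's own mean in log2 units on the 4 arrays, for each SoxF gene (black) and the 5 genes closest to it (colours). Lines join the arrays for reading only, since the arrays have no order. Sox18 is slightly lower on the arrays numbered 2, while Sox7 is slightly higher on them.

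Factors of the blood and vessel program moved in the same direction as the SoxF genes. All 13 listed were measured, and 0 passed in limma over all genes. An unadjusted p under 0.05 with higher signal in positive cells was reached by 12, against 7.07% of all genes. Positive arrays lay above negative arrays in 13 of 13, against 22.4% of all genes. Etv2 is one of the 13 and also one of the 12, and its direction was fixed by the sort. Both counts and the median include it, so only the genes other than Etv2 bear on them. The median difference was 0.89. Fli1, an ETS factor of blood and endothelium, was at 1.44 (SE 0.10), Erg, another ETS factor, at 1.27 (SE 0.09), Hhex, a homeobox factor, at 1.07 (SE 0.09) and Elk3 at 1.16 (SE 0.11), all with a limma adjusted p of 0.0670. SoxF differences lay within the range of this list, from 0.33 for Gfi1b, named after its value was seen, to 1.44.

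The cell type markers were read beside these values. Of 18 endothelial markers 15 had positive arrays above negative arrays, against 22.4% of all genes, with a median difference of 0.99. Cdh5, Cldn5, Robo4, Tek, Tie1, Flt1, Kdr and Esam are also in the list of linked genes, so these lists are not separate counts. In limma 0 passed, and 15 had an unadjusted p under 0.05 with higher signal, against 7.07% of all genes. The median level of the list was 7.01 and 7.04 on the negative arrays, against 8.12 and 8.03 on the positive ones. Kdr (0.13, SE 0.12) was among the 3 markers without higher positive arrays. The part of the endothelial markers in the SoxF differences was not tested. Emcn and Clec14a, surface proteins of endothelium, stayed below the array medians on all arrays, and Pecam1 measured 5.33 and 5.22 against 5.64 and 6.06.

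Endoderm markers, relevant to Sox7 and Sox17, did not follow them. Of 22 listed 21 were measured and 0 passed in limma, while 1 was higher and 5 were lower at an unadjusted p under 0.05, against 7.07% and 4.64% of all genes. Positive arrays were above negative arrays in 1, Col4a1, a basement membrane collagen that endothelium also makes, and below them in 9, against 22.4% and 17% of all genes, and the median difference was -0.19. Foxa2, a factor of endoderm that the node and notochord also express, measured 6.82 and 6.12 on the negative arrays, against 6.45 and 6.04 on the positive ones. Gata4 (-0.70, SE 0.15), Gata6 (-0.38, SE 0.09), Krt18 (-0.81, SE 0.10) and Krt8 (-0.80, SE 0.16) had lower signal in the positive cells, with limma adjusted p from 0.0825 to 0.204. Lower signal was not particular to endoderm genes, since the mesoderm markers given below had a median difference of -1.33. Nor was it shared by the whole endoderm list. Of its 21 differences 6 were above 0, and Ttr was at -0.00057 (SE 0.11). Afp and Foxa3 stayed below the array medians on all 4 arrays.

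Mesoderm markers went the opposite way to the SoxF genes, with a median difference of -1.33. Positive arrays lay below negative arrays in 12 of 13, against 17% of all genes. In limma 0 passed, and 12 were lower at an unadjusted p under 0.05, against 4.64% of all genes. Mesp1, a factor of nascent mesoderm, measured 10.86 and 10.73 against 9.23 and 9.07. Of 16 markers of the OP9 stroma 15 were measured and 0 passed in limma. At an unadjusted p under 0.05, 3 were lower, against 4.64% of all genes. Positive arrays lay above negative arrays in 0, against 22.4% of all genes. They lay below negative arrays in 3 of 15, a share near the 17% of all genes. These 3 were Cxcl12 (-0.63, SE 0.11), Col1a1 (-0.54, SE 0.18) and Vcam1 (-0.33, SE 0.10), which is also in the list of linked genes. The median level of the stroma list was 5.59 and 5.60 on the negative arrays, against 5.58 and 5.11 on the positive ones, and Col3a1 was higher on the arrays numbered 1 (7.86 and 5.90 against 7.73 and 5.39).

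**Figure D5:**
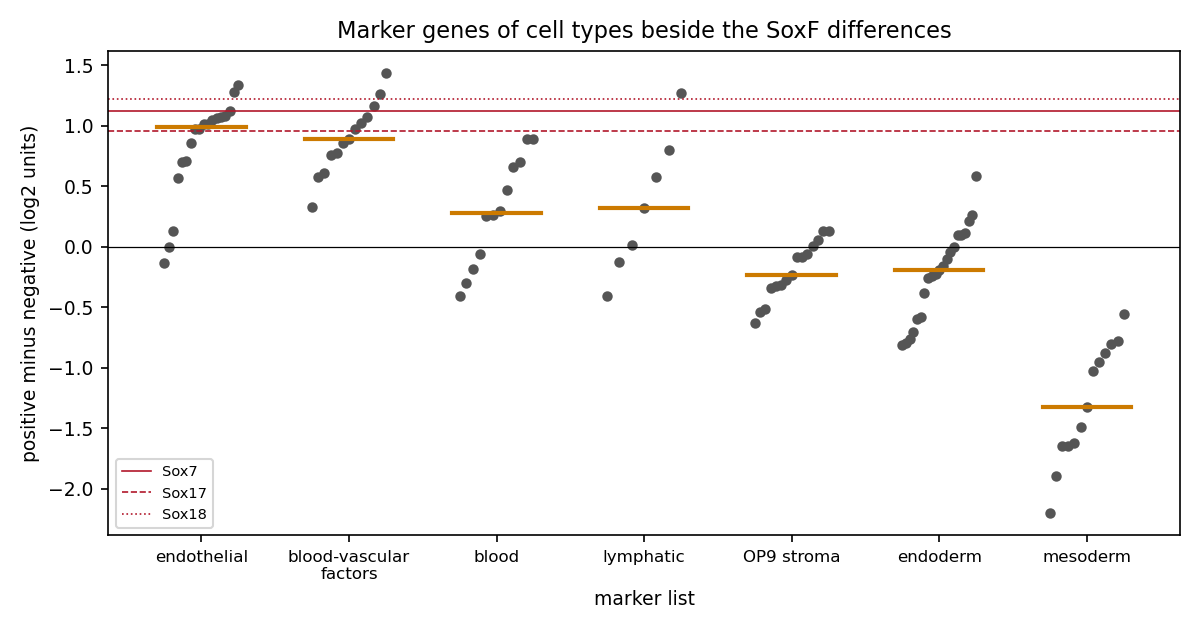
Difference between the populations in log2 units for each measured gene of 7 marker lists (grey points, sorted within a list), with list medians in orange and the SoxF differences as red lines. Endothelial markers and blood-vascular factors have medians of 0.99 and 0.89, close to the lines, and endoderm and mesoderm markers have medians of -0.19 and -1.33.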

How the data were processed

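RNA of 4 samples, 2 per sorted population, was biotin-labelled and measured on an Affymetrix array, per the labels' protocols. The authors deposited log2 signals for each probe set, and the submitters' processing notes name RMA and R 2.8.0. The values themselves show the log base. RMA sets the arrays to a common distribution, which takes out any change shared by all genes.

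Of the probe sets, 34945 had 1 gene symbol, 932 several, 9160 were not listed and 64 were controls. Symbols were updated by Entrez identifier through GRCm38.p6 (34741 matched, 0 changed). One probe set per gene, with the highest mean, gave 18193 genes. The group effect was fitted by lmFit and eBayes (limma 3.58.1, R 4.3.3), with residual degrees of freedom of 2 and a prior of 2.68. Two-sided p-values were adjusted by Benjamini-Hochberg over all genes at 0.05. The fit was first tested on simulated arrays.

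The SoxF genes, all lists and alternatives and the naming rule were chosen with earlier results of these data known. The rule took the SoxF genes, all genes of the Sox, partner and linked lists, Etv2, Kdr, up to 4 genes of smallest p of each other list and the markers, and the 5 most similar genes per SoxF gene. Neighbouring genes were added later. Lists were described by counts and medians, with no set test. The alternatives were every probe set, the mean over probe sets, a minimum mean of 6, a variance trend with robust estimation, quantile normalization again, median centring, a block for the array number, and 1 array left out at a time.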

Additional observations from a re-analysis of the deposited data

How the results depend on the processing

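The differences of Sox7, Sox17 and Sox18 kept their direction under all 12 alternatives, but most of these could not have turned it. Testing every probe set, the minimum mean, the variance trend and the block leave the estimates as they are. Leaving out 1 array cannot turn a sign where the populations do not overlap. Only renormalization, median centring and, for Sox7 and Sox17, the mean over probe sets could have done so. Without 1 array at a time they ran from 0.997 to 1.26 for Sox7, 0.83 to 1.08 for Sox17 and 1.15 to 1.29 for Sox18, and limma then gave adjusted p from 0.364 to 0.405, with 0 genes called higher or lower in each of these fits, of the other Sox genes and of the linked genes too. Under the mean-variance trend with robust variances, limma calls came to 81 higher and 31 lower genes, among them Sox7 (1.13), Sox18 (1.22) and 4 linked genes, Rasip1, Tek, Flt4 and Esam. Among genes with a mean of at least 6 it called 66 higher and 13 lower, with Sox18 (1.22) and 4 linked genes, Rasip1, Tie1, Flt4 and Esam. Tie1 passed that minimum only through the positive arrays, with means of 5.78 and 6.80. The array numbers are shared by both populations, but the labels do not say that they mark a shared culture. Deviations of arrays with the same number correlated across genes (r = 0.54). With the replicate block alone limma called 0 genes higher and 0 lower. The differences of Sox7, Sox17 and Sox18, which this balanced block cannot change, were 1.13, 0.96 and 1.22 (limma adjusted p = 0.0856, 0.0904 and 0.0856). The block with the trend, chosen after seeing the data, called 616 genes higher and 361 lower, all 3 SoxF genes (Sox7 1.13, Sox17 0.96, Sox18 1.22; adjusted p = 0.0133, 0.0189 and 0.0133), 1 other Sox gene, Sox11, and 10 linked genes, Prox1 among them (0.80, adjusted p = 0.0333). The cause of these changes in calls was not tested.

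For 9 of the named genes a sign turned. With the mean over probe sets Sox5 was at 0.0415. Without 1 array at a time the values ran from -0.78 to 0.0930 for Sox3, -0.24 to 0.0490 for Sox5, -0.22 to 0.00014 for Sox8, -0.11 to 0.17 for Sox10, -0.75 to 1.13 for Mef2c, -0.11 to 0.26 for Rbpj, -0.22 to 0.51 for Runx1, -0.0552 to 1.66 for Prox1 and -0.0612 to 0.0838 for Nr2f2. Dim probe sets limit the size that can be read for Dll4, Vcam1, Sox1 and the second Sox7 probe set.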

Other observations

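Blood markers, read because blood-forming endothelium expresses Sox7 and Sox17, were split. All 12 were measured, 0 passed in limma over all genes, 6 were higher and 1 lower at an unadjusted p under 0.05 (7.07% and 4.64% of all genes), positive arrays lay above negative arrays in 8 and below them in 3 (22.4% and 17% of all genes), and the median difference was 0.28. Plek, a platelet and leukocyte protein, measured 6.19 and 6.28 on the negative arrays, against 7.15 and 7.10 on the positive ones, a difference of 0.89 (SE 0.09), and Fermt3, an integrin activator of blood cells, was also at 0.89 (SE 0.10). Kit, the stem cell factor receptor, was at 0.66 (SE 0.10) and Itga2b, an integrin subunit of platelets and progenitors, at 0.70 (SE 0.11). Ptprc, the pan-leukocyte marker, stayed between 2.97 and 3.39 on all arrays, and Klf1, an erythroid factor, between 4.77 and 5.00.

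Genes linked to SoxF biology differed in how much they varied between the arrays numbered 1 and 2. Mef2c was higher on the array numbered 2 by 1.88 (negative) and 1.65 (positive). For Runx1 these values were 0.55 and 0.73. Sox3 was lower on it in both populations, at -0.87 and -0.46. These genes were chosen after their values were seen. For the SoxF genes the values were 0.15 and 0.26 for Sox7, 0.25 and 0.02 for Sox17 and -0.08 and -0.14 for Sox18. Linked genes differed in this. Rasip1 varied little, at 0.03 and -0.05, while Notch1, at 0.50 and 0.41, and Prox1, at 1.72 and 1.58, varied more.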
